A study of Drosophila melanogaster with 3 samples.

Results

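CG15601 is the Drosophila melanogaster gene whose tagged product was used as bait, and CG15646 and CG12708 are a pair of genes on the same stretch of the X chromosome with peaks among the strongest of the data set. Members were the peaks with a summit in the body of 1 of these 3 genes or within 5 kb of it. By this rule 15 of the 30000 peaks called on the pooled replicates were members, of 5452 on the X chromosome. A further list was thresholded on the irreproducible discovery rate (IDR), which scores the repeatability of peak ranks, and there 6 of 6458 peaks were members, out of 1048 on the X chromosome. The lists of replicates 1, 2 and 3, each of 30000 peaks, held 10, 15 and 17 members. CG15646 and CG12708 were chosen by the measured signal of their peaks in these same data, so their high ranks are a description and carry no test.

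The experiment was chromatin immunoprecipitation followed by sequencing (ChIP-seq), which recovers the DNA that a protein occupies. Whole embryos of both sexes, pooled and aged 0 to 14 h, came from a transgenic fly line that stably expresses CG15601 with green fluorescent protein (GFP) at the C-terminus, and an antibody against GFP was used on chromatin sonicated to 200 to 800 bp. The 3 samples are biological replicates of this 1 group, with no group lacking the tag. The insertion site of the tagged copy, the genomic segment it carries and the state of the resident gene are details not given in the sources used here. A whole-embryo sample mixes all embryonic cell types and a wide span of stages, so occupancy in a few cells and weak occupancy in many cannot be told apart.

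CG15601 encodes a protein of the MADF-BESS family, in which a DNA-binding MADF domain is joined to a BESS motif that mediates contacts between proteins. The family includes Adf1, a transcription factor described at promoters in flies. RefSeq describes the products of CG15601, CG15646 and CG12708 as uncharacterized. A peak's summit is the base where the signal is highest, and promoter here means within 500 bp of an annotated start site.

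All 3 genes lie on dm6 chromosome X. CG15646 (FBgn0030665) spans 15667885 to 15671029 on the minus strand, CG12708 (FBgn0030666) spans 15675476 to 15677737 on the plus strand, and CG15601 (FBgn0030673) spans 15710647 to 15712309 on the plus strand. CG15646 and CG12708 therefore point away from each other, with both of the strongest summits between them. The stretch from 5 kb left of CG15646 to 5 kb right of CG15601, X from 15662885 to 15717309, is called the strip below. It is 54425 bp long, touches 16 annotated genes and holds 22 start sites.

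The reference sequence around 4 summits is shown because these are the sites on which the contrast turns, namely the pair of very strong peaks and the peaks at the start sites of CG15601 and of its right-hand neighbour HUWE1. Each run is the plus strand of RefSeq genome release 6 (dm6), from 50 bp left to 50 bp right of the pooled summit. Capitals mark matches, on either strand, to the 11 short sequence words taken up further on.

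CG15646 peak, chrX:15671237-15671337: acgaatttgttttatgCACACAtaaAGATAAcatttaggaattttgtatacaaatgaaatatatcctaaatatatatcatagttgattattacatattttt

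CG12708 peak, chrX:15675375-15675475: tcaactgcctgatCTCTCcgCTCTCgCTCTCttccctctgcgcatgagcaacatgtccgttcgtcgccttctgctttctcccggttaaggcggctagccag

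CG15601 peak, chrX:15710645-15710745: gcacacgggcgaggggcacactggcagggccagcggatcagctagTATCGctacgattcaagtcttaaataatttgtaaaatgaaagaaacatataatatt

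HUWE1 peak, chrX:15712534-15712634: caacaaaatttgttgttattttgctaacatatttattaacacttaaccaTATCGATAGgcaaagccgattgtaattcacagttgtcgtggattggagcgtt

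The strongest member lay upstream of CG15646. Its summit at 15671287 was 258 bp before the nearest start site of that gene, outside any annotated gene, in a pooled peak from 15670842 to 15671869. Its signal, the value that the authors' caller gave a peak within 1 list, was 7818 in the pooled list, which ranked it 17 of 30000 and 2 on the X chromosome. In replicates 1, 2 and 3 the signal was 1618, 2656 and 3497 and the rank was 13, 17 and 17, a mean rank of 15.7 ± 2.31 (SD, n = 3). Signal is not scaled between lists, so ranks, and shares of a list's highest signal, are what can be set side by side. The peak reached 32.5% of the highest signal of replicate 1, 25.0% in replicate 2 and 21.7% in replicate 3.

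The second member stood at the start of CG12708, with its summit at 15675425, 51 bp upstream of the start site, in a pooled peak from 15674673 to 15675857. Its pooled signal of 5936 ranked it 22 overall and 3 on the X chromosome. In replicates 1, 2 and 3 the signal was 1143, 1876 and 2924 and the rank was 25, 21 and 21, a mean of 22.3 ± 2.31 (SD, n = 3). The CG15646 peak ranked above the CG12708 peak in each of the 3 replicates, and the ranks of the 2 peaks did not overlap. The signal of the first over that of the second was 1.32 in the pooled list and 1.42, 1.42 and 1.20 in replicates 1, 2 and 3, a mean ratio of 1.34 ± 0.127 (SD, n = 3).

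These 2 summits were 4138 bp apart, and their positions repeated closely. The replicate summits lay at most 12 bp from the pooled summit at CG15646 and at most 18 bp at CG12708. For the other IDR peaks of the strip the largest shift ranged from 15 bp to 83 bp. The 15 bp was at the HUWE1 peak, matched in replicates 2 and 3 only, so close repetition was not particular to the strong pair. Both peaks were wider than the median entry of each list. The CG15646 peak was 1028 bp wide in the pooled list and 752, 960 and 963 bp in replicates 1, 2 and 3. The CG12708 peak was 1185 bp wide in the pooled list and 715, 885 and 860 bp in those replicates. Median widths were 430 bp over the pooled list and 404, 420 and 410 bp over replicates 1, 2 and 3. Every other pooled member was exactly 430 bp wide, and whether the caller set that width was not tested. Because the 5 kb regions of the 2 genes overlap, both peaks counted for both genes, and the same 2 peaks are the IDR members of each.

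Around CG15601 itself the peaks were far weaker. Its 4 IDR members ranked from 1995 to 6005 in the pooled list, with signals from 420 down to 193. The strongest, at 15712584, lay 44 bp upstream of HUWE1, which encodes a HECT-type E3 ubiquitin ligase and begins 319 bp beyond the end of CG15601. The next, at 15710695, lay 48 bp inside the first start site of CG15601. The start of CG9281, transcribed in the opposite direction, is 108 bp away from that start site, so this summit is also a promoter summit of CG9281 and cannot be assigned to 1 of the 2 genes. The remaining IDR members lay at 15709765, in an intron of CG9281, and at 15710900, 157 bp before the second start site of CG15601.

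The 4 peaks did not repeat alike between replicates. The HUWE1 peak had no counterpart in the list of replicate 1, ranked 2601 with a signal of 136 in replicate 2 and ranked 1130 with a signal of 224 in replicate 3. The CG15601 start peak was likewise missing from the list of replicate 1, and ranked 2233 with a signal of 148 in replicate 2 and 2558 with a signal of 143 in replicate 3. The peak before the second start site, whose pooled entry overlaps that of the first, was again unmatched in replicate 1 and ranked 9678 and 5127 in replicates 2 and 3, with signals of 53.6 and 92.1. Only the CG9281 intron peak was found in all 3 lists, at ranks 4776, 3577 and 2607 in replicates 1, 2 and 3 and signals of 59.7, 111 and 141, a mean rank of 3653 ± 1087 (SD, n = 3).

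Replicate 1 thus listed 0 summits in the body of CG15601 and 0 within 500 bp of the first start sites of CG15601 and HUWE1. It listed 1 summit, that of the CG9281 intron, in the CG15601 region, where replicates 2 and 3 listed 6 and 7. Each replicate list stops at 30000 peaks, with a lowest listed signal of 14.6 in replicate 1, 19.9 in replicate 2 and 21.5 in replicate 3, so a site outside a list may hold a weaker signal. The best rank in the CG15601 region, held by a different peak in each replicate, was 4776, 2233 and 1130 in replicates 1, 2 and 3, a mean of 2713 ± 1870 (SD, n = 3), which becomes 1682 when replicate 1 is left out. All of these ranks lie below every rank of the 2 strong peaks.

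Of the 6 IDR members, 6 were matched in replicate 2, 6 in replicate 3 and 3 in replicate 1, where a match means an overlap of at least 50% of both peaks. The 3 members matched in every replicate compare with 68.8% of all IDR peaks and 67.6% of those on the X chromosome. A match in replicates 2 and 3 without one in replicate 1, the pattern of the 3 CG15601 and HUWE1 peaks, occurred for 546 of all IDR peaks, or 8.45%, and for 9.16% of those on the X chromosome. Among the 4011 IDR peaks of the pooled ranks that these 3 peaks span, 343 or 8.55% had it, and 254 or 6.33% had no overlap of any length in replicate 1. Replicate 1 also matched fewer IDR peaks as a whole, 76.7% against 83.3% and 82.4% in replicates 2 and 3. The part of sequencing depth in this difference was not tested, since the lists hold no read counts.

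Set against the best peak of the CG15601 region, the CG15646 peak had 18.6 times the signal in the pooled list and 27.1, 17.9 and 15.6 times in replicates 1, 2 and 3. For the CG12708 peak the ratio was 14.1 in the pooled list and 19.2, 12.7 and 13.1 in the replicates. The peak in the denominator differs between lists, being the CG9281 intron peak in replicate 1, the CG15601 start peak in replicate 2 and the HUWE1 peak in replicate 3 and the pooled list, so these ratios were not averaged. Over the CG9281 intron peak, which all lists hold, the CG15646 peak had 23.2 times the signal in the pooled list and 27.1, 23.9 and 24.7 times in replicates 1, 2 and 3, a mean of 25.2 ± 1.67 (SD, n = 3). For the CG12708 peak that ratio was 17.6 in the pooled list and 19.2, 16.9 and 20.7 in the replicates, a mean of 18.9 ± 1.90 (SD, n = 3). In each list the best peak of the CG15601 region was close to 1% of the highest signal, at 1.20%, 1.39% and 1.39% in replicates 1, 2 and 3.

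**Figure D1:**
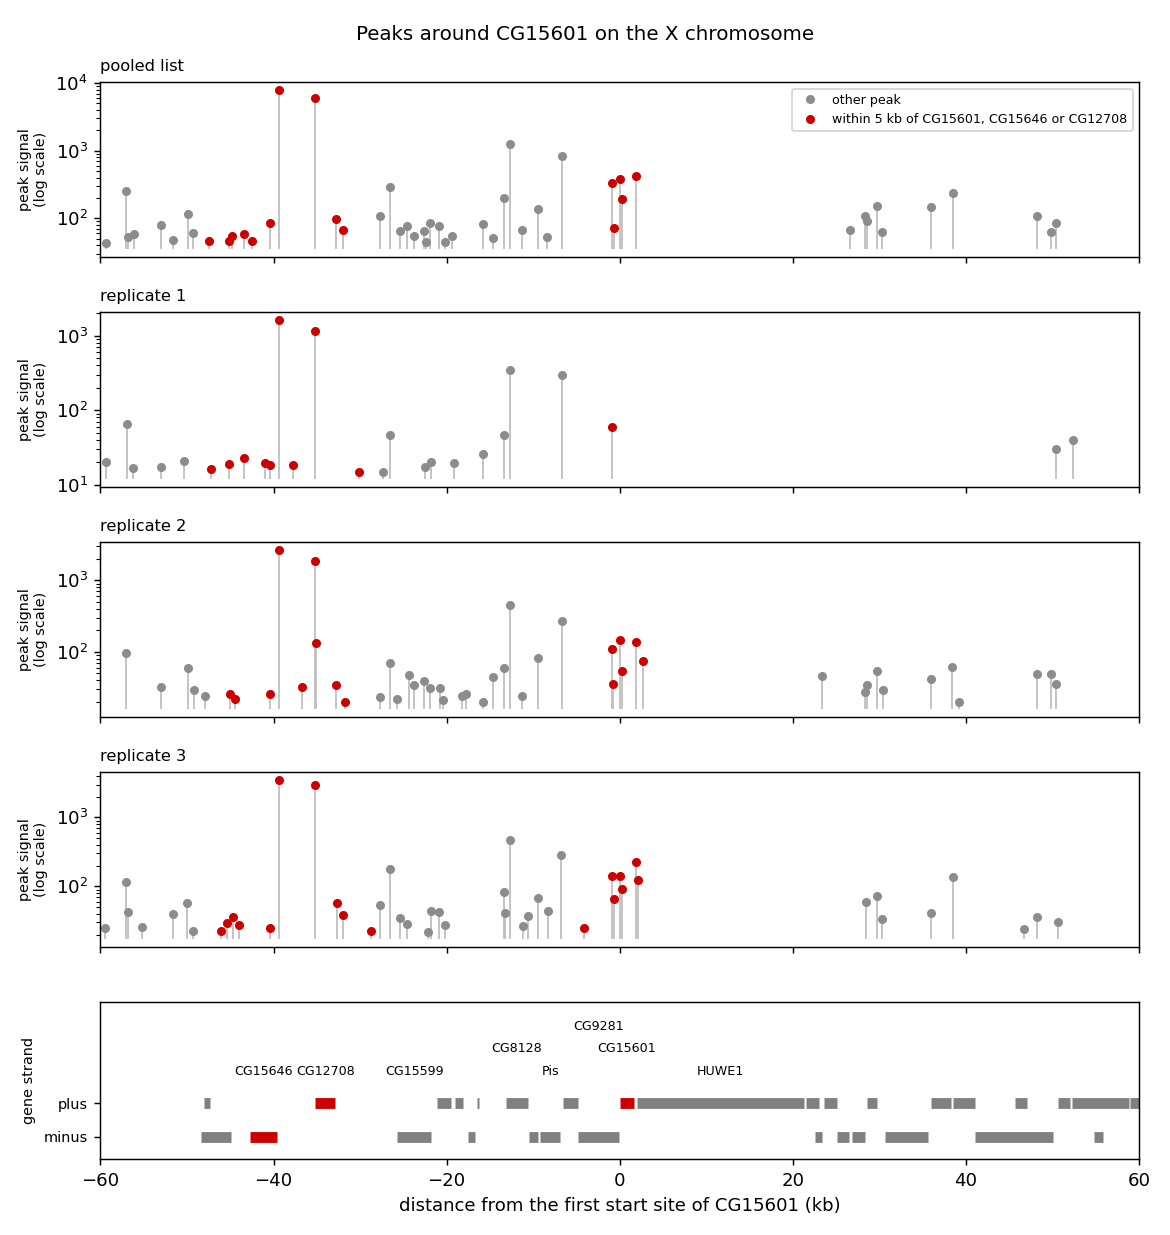
Signal of every listed peak (log scale, arbitrary units of the caller, not scaled between lists) against distance in kb from the first start site of CG15601, for the pooled list and replicates 1, 2 and 3, with annotated genes by strand in the lowest panel. Red points are members and grey points other peaks, and the 2 tall red points left of CG15601 are the CG15646 and CG12708 peaks, while replicate 1 has 1 red point, the CG9281 intron peak, near 0.

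Of the 15 pooled members, 9 were outside the IDR list, at ranks from 12825 to 28300, and 1 of these 9 was matched in all 3 replicates, against 27.9% of the pooled peaks below the IDR threshold. Ranks over 5000 made up 10 of the 15 pooled members, 7 of 10 in replicate 1, 9 of 15 in replicate 2 and 11 of 17 in replicate 3, against 85.6%, 82.3%, 85.2% and 85.0% of the X peaks of these 4 lists. Each of the 5 lists had 2 members among its 100 strongest peaks, the CG15646 and CG12708 peaks. Replicate 2 lists the CG12708 peak with an additional summit at 15675613, at rank 2639.

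Promoters held 8 of the 15 pooled members, against 30.0% of the pooled peaks on the X chromosome, and 5 of the 6 IDR members, against 44.6% of the IDR peaks on X. They held 5 of 10, 10 of 15 and 9 of 17 members in replicates 1, 2 and 3, against 27.0%, 32.2% and 32.7% of the X peaks of those lists. The members were chosen around genes, so these counts carry no test. The remaining IDR member was the CG9281 intron peak. IDR entries are the strongest pooled entries with the same positions and signals, and all 6 carried the highest −log10 q-value of the pooled list, 4.16, so signal and not q-value orders them.

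Between the strong pair and CG15601 the strip held 4 more IDR peaks, all outside the 5 kb regions. The strongest, at 15697973, lay 468 bp inside CG8128, which RefSeq describes as uncharacterized. It ranked 296 in the pooled list with a signal of 1275, and 322, 308 and 296 in replicates 1, 2 and 3, a mean of 309 ± 13.0 (SD, n = 3). A peak at 15703935, between the diverging starts of Pis, the phosphatidylinositol synthase gene, and Hap40, which encodes a partner of huntingtin, ranked 653 with a signal of 839, and 430, 819 and 717 in replicates 1, 2 and 3. These 2 peaks repeated in every list, ranked between the strong pair and the CG15601 peaks in all 3 replicates, and did not overlap either group in rank.

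The other 2 IDR peaks of the strip were weaker. A second summit at CG8128, 253 bp upstream of a start site, ranked 5743 in the pooled list and 6543, 8592 and 5856 in replicates 1, 2 and 3. An intergenic summit beyond the end of CG15599, at 15684144, ranked 3544 in the pooled list and 6381, 6741 and 1699 in replicates 1, 2 and 3. The ranks of the intergenic peak overlapped those of the second CG8128 peak and of the CG9281 intron peak, so its place in the order is not fixed, whereas the CG9281 intron peak ranked above the second CG8128 peak in each replicate, without overlap. In all, 7 of the 10 IDR peaks of the strip were matched in every replicate, with 7, 10 and 10 matched in replicates 1, 2 and 3.

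**Figure D2:**
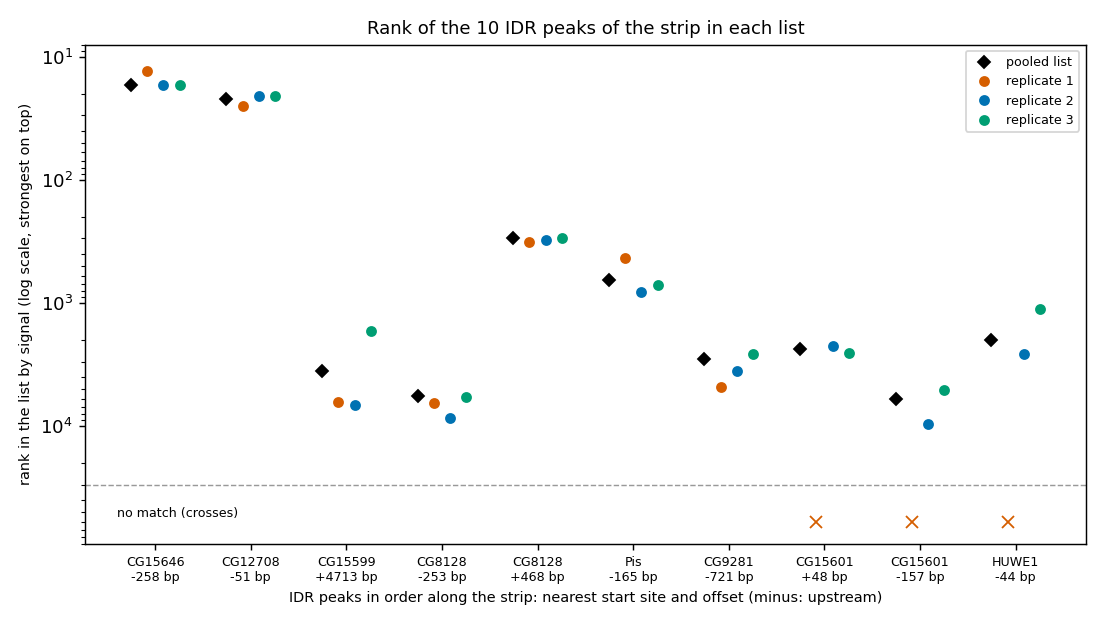
Rank by signal (log scale, strongest at the top) of the 10 IDR peaks of the strip, in order along the chromosome and named by nearest start site and offset in bp, for the pooled list and each replicate. The CG15646 and CG12708 peaks stay between ranks 13 and 25 in every list, and crosses below the dashed line mark the 3 peaks at CG15601 and HUWE1 that have no match in replicate 1.

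The 5 kb limit decides which of these peaks are members. The intergenic peak at 15684144 lay 1407 bp beyond the right edge of the CG12708 region, and the Pis and Hap40 peak lay 1712 bp outside the left edge of the CG15601 region, whereas the CG9281 intron peak lay 4118 bp inside it. The CG12708 peak entered the CG15646 region by 604 bp and the CG15646 peak entered the CG12708 region by 811 bp.

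By gene, 8 of the 16 genes on the strip had an IDR summit at a promoter, against 20.4% of all genes on the X chromosome. They were CG15646, CG12708, CG8128, Pis, Hap40, CG9281, CG15601 and HUWE1, of which Pis and Hap40 share 1 peak and CG9281 and CG15601 share theirs, so the genes are not independent counts. These 8 were among 11 protein-coding genes, against 23.5% of the protein-coding genes of the chromosome. CG15646 and CG12708 are among the 8 by the choice of genes, and the strip was drawn around them, so neither count carries a test. CG8119, whose start site lies just left of the strip, CG15599 and CG9240 had no IDR summit at a promoter, and neither did any of the 5 non-coding genes. The best promoter peak of CG9240 ranked 8777 in the pooled list, was not listed in replicate 1 and ranked 5630 and 7606 in replicates 2 and 3.

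Among the 2813 annotated genes of the X chromosome, 49.2% had an IDR summit in the body or within 5 kb, so having one, as CG15601, CG15646 and CG12708 all did, is common. A summit among the 100 strongest pooled peaks was near 29 of these genes, or 1.03%, and CG15646 and CG12708 are 2 of them by the choice of genes. For CG15601, 593 genes had a better best pooled rank and 21.2% ranked as high or higher. That share was 40.9%, 22.4% and 11.5% in replicates 1, 2 and 3. The median best rank of the 2200 X genes with any pooled summit was 4528, so CG15601, at 1995, stood above the median, and in replicate 1 its rank of 4776 was below the median of 4319. CG15646 and CG12708 share the peak of rank 17, which only 3 other genes surpassed.

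**Figure D3:**
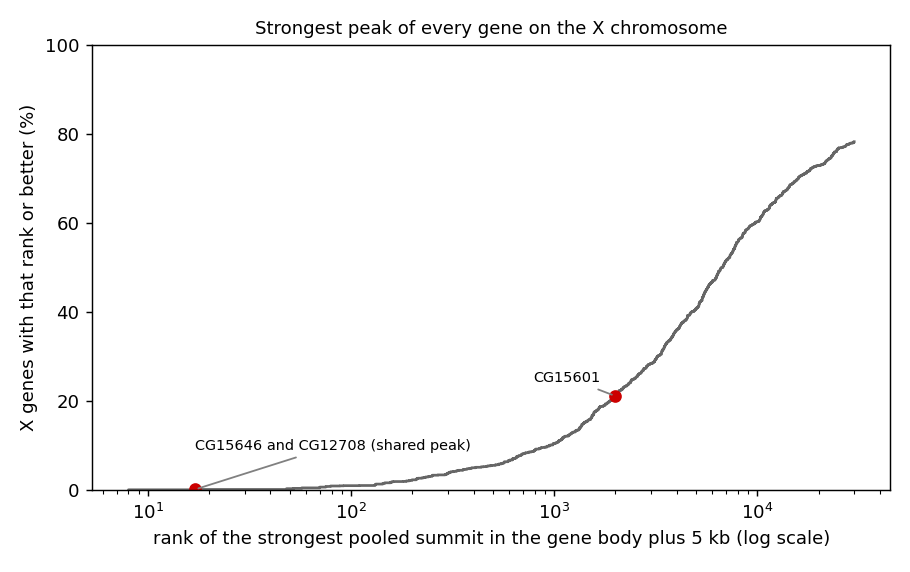
Share of the 2813 X genes (percent) whose strongest pooled summit in the body plus 5 kb has a given rank or better (rank on a log scale). Red points mark CG15601 at rank 1995 and 21.2%, and CG15646 with CG12708 at rank 17 and 0.178%.

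Outside the strip, the X genes most like CG15601 in their best ranks over the 3 replicates, by the mean absolute difference of log10 rank, were Hmr, CG1628 and CG2124, which neighbour each other and share peaks. Hmr, the hybrid male rescue gene, at X from 10590920 to 10595855, had best ranks of 4280, 2333 and 1399 in replicates 1, 2 and 3 and a difference of 0.0531. CG1628 and CG2124 had ranks of 4205, 2333 and 1399 and a difference of 0.0557. On the strip, HUWE1 has the same best peaks as CG15601, and CG12708 the same as CG15646. Outside the strip, the X genes nearest to CG15646 were Socs16D, a suppressor of cytokine signalling gene, CG6398 and lncRNA:CR44691, which share 1 peak with ranks of 8, 7 and 8 and a difference of 0.308.

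The 2 strong summits lie 39360 bp and 35222 bp left of the start of CG15601. To the right of the HUWE1 peak at 15712584 the pooled list had no summit until 15737291, a gap of 24707 bp, and 138 of the 5451 gaps between pooled summits on the X chromosome were as long. In replicate 1 the gap ran from the CG9281 intron summit at 15709749 to 15761019, 51270 bp, and 28 of 4688 gaps were as long. The gaps were 20745 bp in replicate 2 and 26373 bp in replicate 3, matched in length by 165 of 5355 and 128 of 4972 gaps. Within 20 kb of the start of CG15601, the pooled list had 11 summits on the left and 3 on the right, and replicates 1, 2 and 3 had 6 and 0, 11 and 4, and 11 and 4. In each of these 4 lists more summits lay on the CG9281 side than on the HUWE1 side. The sides differ in their genes. The body of HUWE1 runs from 1.98 to 21.3 kb right of the start of CG15601. CG9281, Hap40, Pis, CG9240 and CG8128 all lie within 20 kb on the left. The part of this difference in the gaps and counts was not tested.

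Whether strong peaks gather around CG15601 was described over all windows of the strip's length on the X chromosome, 23488 of them in steps of 1 kb. No test was made, since the strip was drawn around peaks known to be strong. The strip held 2 of the 12 X peaks among the 100 strongest pooled peaks, and 105 windows, or 0.447%, held as many. Of these 105, 54 did not overlap the strip, and they all covered 1 other locus, that of ph-p, a Polycomb group gene, with summits at 2137314 and 2137956 and ranks of 52 and 87. The share was 0.443%, 0.447% and 0.447% in replicates 1, 2 and 3. Among windows with a number of start sites within 20% of the strip's, it was 31 of 2672, or 1.16%.

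Over longer lists of peaks the strip was also in the upper tail. These lists still hold the 2 strong peaks around which the strip was drawn, so they are not separate evidence. It held 3 of the 67 X peaks among the 500 strongest, and 88 windows, or 0.375%, held as many, at 3 loci elsewhere. It held 10 IDR summits, against a mean of 2.43 and a median of 2 per window, and 464 windows, or 1.98%, held as many, at 20 loci elsewhere and with a highest count of 22. For all pooled summits it held 34 against a mean of 12.6, and 823 windows, or 3.50%, held as many, at 29 loci elsewhere. In a window of 100 kb centred on CG15601, the count of the 100 strongest was still 2, and 0.836% of such windows held as many. The part of its number of start sites in its IDR count was not tested.

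**Figure D4:**
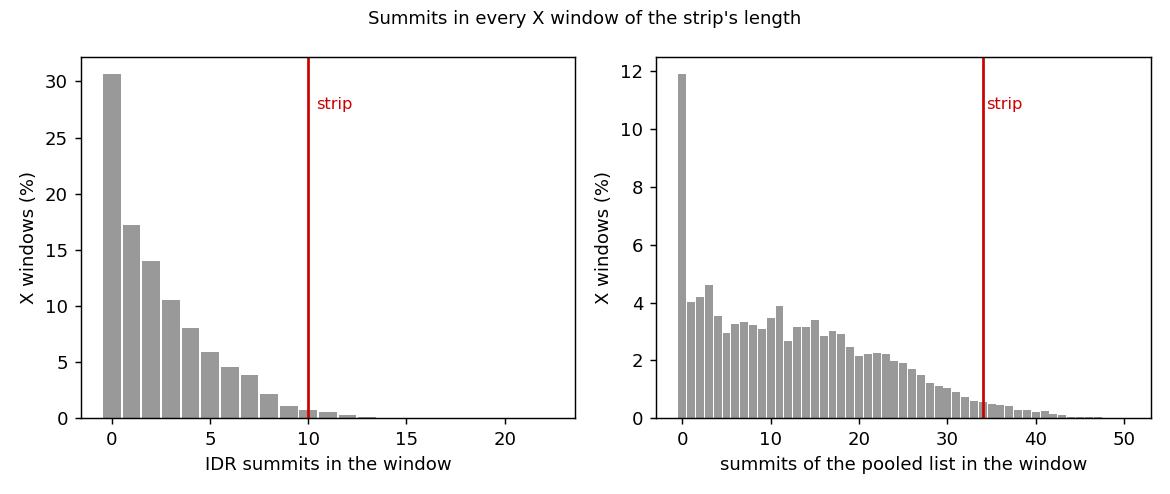
Percent of X windows of the strip's length (54425 bp, steps of 1 kb) by the number of IDR summits (left) or of all pooled summits (right) they hold. The red lines mark the strip, at 10 IDR summits and 34 pooled summits, in the upper tail of both distributions.

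CG15646 and CG12708 resemble each other in their coding sequence. Over 1230 and 1215 bp without the stop codon, 1077 of 1164 aligned bases, or 92.5%, were identical, and the longest exact run was 155 bp. The 2 peaks upstream of them showed no such likeness. Their best local alignment covered 19 bases on the same strand, 16 of them identical, and 36 bases on opposite strands, 30 of them identical, with no exact run over 11 bp. In the gene bodies, 17.5% of the runs of 31 bases in CG15646 and 24.4% of those in CG12708 occurred more than once in the genome. In the 10 IDR peaks of the strip and in the body of CG15601 that share was 0, so each run of 31 bases there has a single place in the reference.

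The 2 strong summits also differed in base composition, as the printed sequences show. Over 101 bp the CG15646 summit had a GC content of 19.8% and the CG12708 summit of 58.4%, against a median of 32.7% for IDR summits on the X chromosome. A GC content that low or lower was found at 4.39% of X IDR summits, and 98.8% of them had a GC content at or below that of the CG12708 summit. The CG15601 start summit had 43.6% and the HUWE1 summit 33.7%.

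The sequence words were searched on both strands within 50 bp of the 6 IDR member summits. At the HUWE1 summit the same bases gave ATCGATA, the core of the element bound by DREF in flies, its relative CTATCGA and the shorter CGATA, all of which overlap one another. ATCGATA was found at that member alone, and at 4.77% of IDR summits on the X chromosome, and CTATCGA at that member and at 3.53% of X IDR summits. CGATA was also at the CG15601 start summit, and at 17.4% of X IDR summits. GAGAG, the core of the GAGA factor element, was at the CG12708 and CG9281 intron summits, and at 9.35% of X IDR summits. The printed CG12708 sequence holds 3 copies of it, on the minus strand.

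The word AGATAA was found at the CG15646 summit alone among the members and at 7.06% of X IDR summits, and CACACA was likewise there alone and at 8.49% of X IDR summits. None of the 6 windows held GTCACAC, which was at 1.24% of X IDR summits, or CAGGTAG, which was at 0.477% of them. None held TAAACA, at 13.2% of X IDR summits, TTTAAAA, at 11.4% of them, or TAAAATA, at 10.1% of them. The 2 strong summits thus had no word in common, and of the 6 members, the one 157 bp before the second start site of CG15601 had none of the 11. These results hold within 50 bp only. Within 100 bp, GTCACAC was found by the CG15601 start and HUWE1 summits, and by 3.63% of X IDR summits. TTTAAAA was found by the CG15646 and CG9281 intron summits, and by 19.6% of X IDR summits. CACACA was also found by the HUWE1 summit. The member before the second start site then had 1 word. The other absent words remained absent, and the strong summits still shared none. These matches describe letters in the reference and not occupied sites.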

How the data were processed

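ChIP-seq with an anti-GFP antibody was analysed from peak lists of 3 biological replicates of 1 group. The authors deposited 1 list per replicate, 1 list for the pooled replicates and 1 IDR-thresholded list, called against 1 shared control file on dm6, per the deposited listings of derived files. The software used for alignment and for peak calling is not given in the sources used here. For each peak the authors deposited a signal, a −log10 q-value and a summit offset. Signal was used for ranks and ratios within a list only. Read depth is unknown, and the precision is that of 3 replicates.

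Genes were placed by the Ensembl annotation (release 115, BDGP6.54), and sequence was read from RefSeq genome release 6. Summits were counted with Python 3.11.15, pandas 2.3.3 and numpy 2.4.6, sequences were aligned with Biopython 1.88, and the counting was tested on simulated peaks. Replicate peaks were matched by 50% reciprocal overlap, taking the nearest summit. The named genes are the 3 listed genes, every gene overlapping the strip, and for CG15601 and CG15646 the 3 X genes outside it with the most similar replicate ranks. The gene ph-p was named after the window counts were seen. Members, words and lists were chosen with earlier results of these data known, so no test was made. Other distances, overlaps, rankings, gene classes, windows and left-out replicates were tried as alternatives.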

Additional observations from a re-analysis of the deposited data

How the results depend on the processing

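Of 83 alternative values, 56 stayed near the reported value and 27 did not. The 56 include the mean ranks with a replicate left out, which the rule for ranks given next always counts as near. Near means within 1.5 times for counts and within 1 SD of the replicates for ranks. For shares of windows or genes it means within the exact 95% binomial interval. That interval treats windows and genes as independent, although windows overlap and neighbouring genes share peaks. It is therefore only a yardstick and does not measure the error of a share. The scoring had no outcome for a reversed direction, so reversals were not assessed. The cause of the moves away from reported values was not tested beyond what the change of region itself fixes. With gene bodies alone, IDR members fell to 2 for CG15601, 0 for CG15646 and 0 for CG12708, members of the 3 genes to 4 in the pooled list and 2, 4 and 3 in replicates 1, 2 and 3, and CG15601 members to 0, 2 and 2. With 2 kb, CG15646 and CG12708 had 1 IDR member each. With 10 kb, the 3 genes had 26 pooled members and 25 and 27 in replicates 2 and 3, and CG15601 had 2 in replicate 1. Merging overlapping peaks left CG15601 with 4 members in replicate 3. Ranked within the X chromosome, CG15646 and CG12708 were both at 2. CG15601 was at 301 there, against 1995 in the whole pooled list, and counted as near only because its SD was 1870. Matched IDR members ranged from 3 to 6 with a replicate left out, with 6 without replicate 1, and the mean best rank of CG15601 ranged from 1682 without replicate 1 to 3505. That of CG15646 and CG12708 ranged from 15 to 17. The share of windows as full as the strip was 1.16% at like start-site numbers, 1.98% for IDR summits and 0.836% for 100 kb. The share of X genes with an IDR summit was 52.4% for protein-coding genes, 14.1% for bodies alone, 36.4% for 2 kb and 63.2% for 10 kb. No paired analysis was possible because the samples form 1 group. Lists capped at 30000 peaks without read counts limit what can be said of weak or unlisted sites, and without an untagged group, signal that does not depend on the tag cannot be told apart.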
